A study of Mus musculus with 18 samples.

Results

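The genes described here are 4 transcription factors or cofactors of follicular helper T cells (Bcl6, Maf, Ascl2 and Pou2af1), the cytokine Il21, and the chains of the interleukin 6 receptor, Il6ra and Il6st. They were picked by symbol from the deposited expression table, where all 7 were found among 23234 gene symbols. Their H3K9me3 peaks were the peaks that carried one of these symbols as the gene name in 4 deposited peak lists. RNA came from mouse T cells (strain C57BL/6) isolated from spleen and lymph nodes 4 weeks after they began to proliferate under lymphopenic conditions. G9a is the histone H3 lysine 9 methyltransferase encoded by Ehmt2. The knockout groups were CD4+CD8+ G9a KO cells, here KO DP (n = 4), and CD4-CD8+ G9a KO cells, here KO SP (n = 2). The control group was CD4-CD8+ WT cells, here WT SP (n = 4). H3K9me3, a mark of silent chromatin, had been mapped in spleen CD8 T cells that were cultured and stimulated through CD3 and CD28, with 2 WT (Ehmt2+/+) and 2 KO (Ehmt2-/-) libraries. The labels used here do not give the age of the mice, the Cre or the deleted exons, or whether replicates stem from different mice.

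Follicular helper cells are CD4 T cells that enter B cell follicles and drive germinal centres. Bcl6 is the transcriptional repressor that defines them, Ascl2 is a helix-loop-helix factor that can switch on Cxcr5, and Maf is a leucine zipper factor that activates Il21, the cytokine they give to B cells. Pou2af1 is the coactivator that binds octamer factors on DNA, best known from B cells. Interleukin 6 binds Il6ra and the complex then recruits Il6st (gp130), which signals through JAK kinases and STAT3. Most other cytokines of the family also use Il6st. Naive T cells carry both receptor chains, and interleukin 6 can induce Bcl6 and Il21 in CD4 T cells.

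RefSeq promoter entries (build GRCm38.p6) were available for 6 of the 7 genes (Bcl6, Il21, Ascl2, Pou2af1, Il6st and Il6ra). The 250 bases before the start site are shown for Il21 and for the receptor chains, whose RNA differed most between the groups, and for the downstream start of Bcl6, the only one of the members' windows with repeated matches to the palindrome that STAT factors and BCL6 bind. Sequences run 5′ to 3′ on the strand of the gene. Capitals mark matches, searched on both strands, to TTCNNNGAA (STAT and BCL6), ATGCAAAT (octamer), TGCTGAC (MAF), CAGCTG (E box, the ASCL2 type), CACGTG (E box), CCAAT and GGGCGG (GC box).
Il21, chr3:37232637-37232886, minus strand: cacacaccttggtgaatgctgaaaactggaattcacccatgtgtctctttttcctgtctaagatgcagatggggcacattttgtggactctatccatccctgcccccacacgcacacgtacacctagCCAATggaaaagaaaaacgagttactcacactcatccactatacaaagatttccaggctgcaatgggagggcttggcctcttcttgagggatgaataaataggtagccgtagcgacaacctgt
Il6ra, chr3:89913197-89913446, minus strand: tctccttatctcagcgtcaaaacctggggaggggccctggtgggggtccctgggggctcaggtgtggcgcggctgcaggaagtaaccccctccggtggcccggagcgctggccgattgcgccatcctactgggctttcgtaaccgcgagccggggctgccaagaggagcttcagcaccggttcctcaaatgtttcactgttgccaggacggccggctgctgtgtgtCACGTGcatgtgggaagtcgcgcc
Il6st, chr13:112463820-112464069, plus strand: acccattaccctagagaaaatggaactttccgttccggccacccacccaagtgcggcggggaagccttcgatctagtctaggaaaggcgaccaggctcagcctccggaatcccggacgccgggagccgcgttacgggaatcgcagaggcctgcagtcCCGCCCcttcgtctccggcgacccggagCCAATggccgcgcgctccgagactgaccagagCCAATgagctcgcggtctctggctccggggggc
Bcl6 downstream start, chr16:23981284-23981533, minus strand: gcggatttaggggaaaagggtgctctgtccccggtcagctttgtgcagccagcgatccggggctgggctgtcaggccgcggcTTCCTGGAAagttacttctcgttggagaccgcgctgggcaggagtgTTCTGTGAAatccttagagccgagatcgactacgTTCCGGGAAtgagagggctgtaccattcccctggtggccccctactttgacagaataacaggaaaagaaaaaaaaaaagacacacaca
The Bcl6 window held TTCNNNGAA 3 times, at 168, 122 and 88 bases before the start (position of the first base of each match). A match occurred in 7.02% of 32851 promoter windows, and 3 or more matches in 9 of them. The Bcl6 window at the upstream start (chr16:23988853-23989102) held 1 match, and the windows of Il21, Il6ra, Il6st, Ascl2 and Pou2af1 held none. The Il21 window held 1 CCAAT and the Il6st window 2, a motif found in 33.8% of all windows, and the Il6ra window held 1 CACGTG, found in 6.02%. The Il6st window also held 1 GGGCGG, on the minus strand relative to the gene, a motif found in 32.7%. None of the members' windows held ATGCAAAT, TGCTGAC or CAGCTG, which occurred in 1.6%, 3.81% and 13% of all windows. These matches describe letters and show no binding.

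RNA levels are FPKM, fragment counts divided by transcript length and by the mapped fragments of the library, as the authors deposited them. The sum of FPKM was 441903 to 504013 in 8 libraries, but in KO DP it was 292872 for replicate 3 and 183632 for replicate 4. Each difference is therefore also given after median-ratio scaling, which moved the median log2 difference of all tested genes from -0.38 to -0.01 for KO DP minus WT SP and from -0.43 to 0.04 for KO DP minus KO SP. Sample titles carry numbers in 2 ranges, 34 to 37 and 738 to 741. KO DP and WT SP have 2 libraries in each range, and KO SP occurs only in the second, so KO SP cannot be told apart from that range except within it. WT SP replicate 2 stood apart: Pdcd1, an inhibitory receptor, was at 238 FPKM there and at 1.41 to 3.31 in the other WT SP libraries, and Prdm1, the repressor that opposes Bcl6, was at 16.0 against 1.57 to 2.63 (both chosen after their values were seen). The RNA of Ehmt2 was 20.9, 23.6, 12.8 and 7.28 FPKM in KO DP, 12.6 and 13.6 in KO SP and, for the WT SP libraries, 18.1, 42.6, 27.0 and 21.5. The limma log2 difference of KO DP minus WT SP was -0.78 (adjusted p = 0.205), and transcripts that lack deleted exons would still count towards FPKM. The mean Cd4 level was 110 FPKM in KO DP, 0.207 in KO SP and 0.334 in WT SP, and Cd8a was at 169, 323 and 291 FPKM.

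Compared with WT SP cells, KO DP cells had more RNA of Il21 and Maf and less of both interleukin 6 receptor chains. The rule was a Benjamini-Hochberg adjusted p below 0.05 in limma on log2(FPKM + 1) over 11162 genes. It called 2 members higher (Il21 and Maf) and 2 lower (Il6ra and Il6st) of the 6 tested, where 7.89% of all tested genes were called (2.86% higher and 5.03% lower). After scaling the same 4 members were called, against 17.6% of all genes (9.7% higher and 7.89% lower). The share of higher among all called genes went from 319 of 881 to 1083 of 1964. Ascl2 did not reach the mean of 0.5 FPKM required for testing, and Il21 and Maf reached it only through KO DP, so a difference at these 2 genes was needed for them to be tested at all. In bulk RNA, fewer cells that express a gene and less RNA per cell cannot be told apart.

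**Figure D1:**
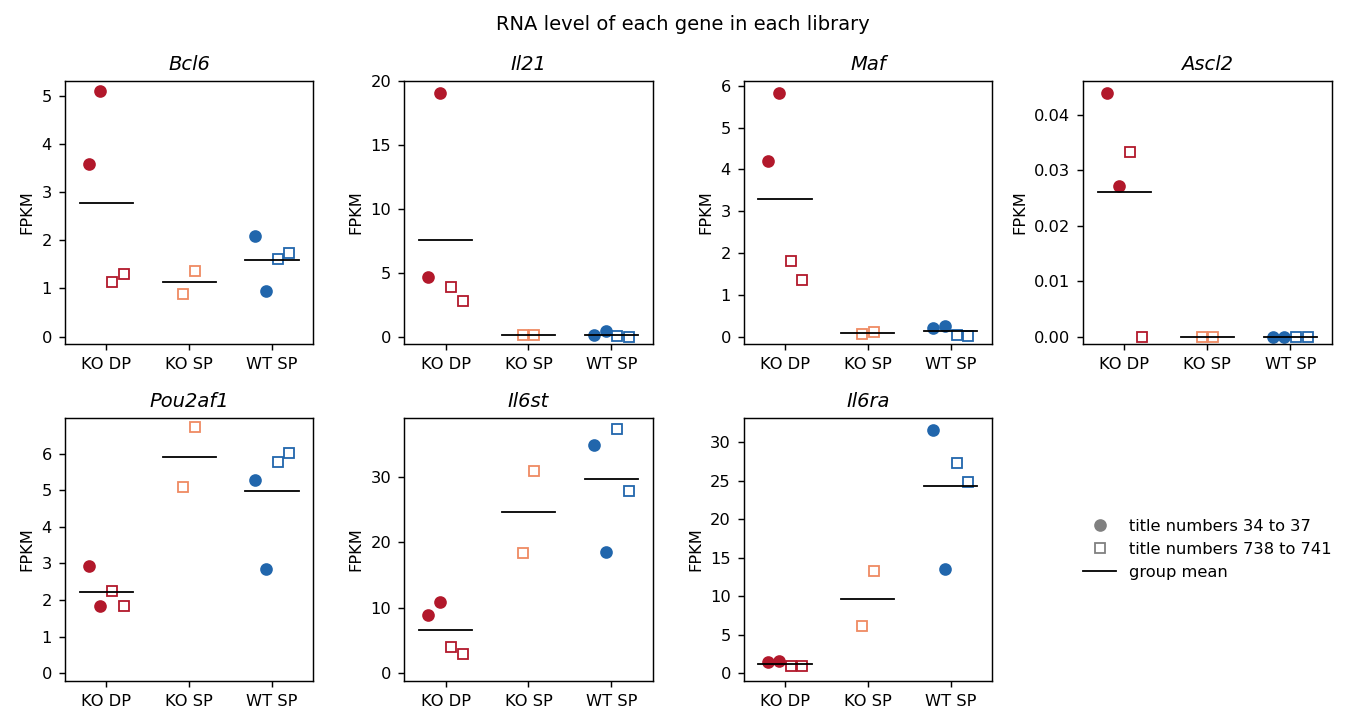
RNA level (FPKM, linear axis that differs between panels) of each gene in the 10 libraries, with the horizontal line at the group mean, filled circles for title numbers 34 to 37 and open squares for 738 to 741. Il21 and Maf lie near 0 outside KO DP, Il6ra falls from WT SP over KO SP to KO DP, and Bcl6 in FPKM as deposited exceeds all SP libraries in KO DP replicates 1 and 2, to which scaling adds replicate 4 at 2.88 against at most 1.94.

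Il21 was at 4.65, 19.1, 3.86 and 2.80 FPKM in KO DP replicates 1 to 4. It was at 0.0968 and 0.0895 in KO SP, and at 0.0965, 0.437 and 0.0247 in WT SP replicates 1 to 3 and listed at 0 in replicate 4. The lowest KO DP library lay above every CD4-negative library, as held for 3.4% of tested genes against WT SP and 4.44% against KO SP (16.5% and 39.9% without overlap in either direction), and KO DP replicate 2 lay far above the other KO DP libraries. The log2 difference to WT SP was 2.59 ± 0.43 (SE, adjusted p = 0.00467 in limma), 3.08 in the libraries numbered 34 to 37 and 2.09 in those numbered 738 to 741. After scaling it was 2.82 ± 0.34. The difference to KO SP was 2.63 ± 0.53 (adjusted p = 0.0278), and within the 738 to 741 libraries it was 1.98. Between KO SP and WT SP the log2 difference was -0.04 ± 0.53, with overlapping groups.

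Maf followed Il21. It was at 4.19, 5.82, 1.82 and 1.36 FPKM in KO DP, 0.0723 and 0.103 in KO SP and, for the WT SP libraries, 0.203, 0.260, 0.0309 and 0.0222. KO DP did not overlap either CD4-negative group. The log2 difference to WT SP was 1.80 ± 0.32 (SE, adjusted p = 0.00647 in limma), 2.27 and 1.33 in the 2 number ranges and 1.99 ± 0.19 after scaling. To KO SP it was 1.85 ± 0.39 (adjusted p = 0.0366), and 1.24 within 738 to 741. With the added 1 FPKM, the log2 differences of Il21 and Maf understate the ratio, since both lay well below 1 FPKM in the SP groups. Over the 10 libraries, which share the group structure, Maf and Il21 correlated at r = 0.974 on log2(FPKM + 1), a description without a test.

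Bcl6 behaved otherwise. Its level was 3.59 and 5.11 FPKM in KO DP replicates 1 and 2 but 1.14 and 1.31 in replicates 3 and 4. It was 0.883 and 1.37 in KO SP and, for the WT SP libraries, 2.10, 0.950, 1.61 and 1.74. As deposited, KO DP replicates 3 and 4 lay inside the range of the SP libraries, while replicates 1 and 2 lay above all of them. The log2 difference of KO DP minus WT SP was 0.42 ± 0.34 (SE, adjusted p = 0.408 in limma), made of 1.11 in the 34 to 37 libraries and -0.27 in the 738 to 741 libraries, where the median difference of all tested genes was 0.05 and -0.82. As deposited the sign of Bcl6 thus differed between the ranges, but after scaling it was positive in both (1.002 and 0.35). The test of that difference between ranges gave 1.37 ± 0.39 (adjusted p = 0.0711 over all genes, and 0.560 after scaling, at 0.65). The 2 KO DP libraries of the second range are also those with the low FPKM sums. After scaling, Bcl6 in KO DP was 3.07, 4.34, 1.56 and 2.88 against 0.843 to 1.94 in WT SP, a log2 difference of 0.68 ± 0.25 (adjusted p = 0.0887). With KO DP replicates 3 and 4 left out, the difference to WT SP was 1.05 (adjusted p = 0.0421 in limma) and that to KO SP 1.32 (adjusted p = 0.0446). These fits called 834 and 460 of all tested genes. They set KO DP libraries of the first range alone against WT SP of both ranges and KO SP of the second. The difference to KO SP thus cannot be told apart from the number range there. KO DP minus KO SP over all libraries was 0.70 ± 0.42 (adjusted p = 0.311), and within 738 to 741 it was 0.07 as deposited and 0.71 after scaling.

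Ascl2 was barely detected. It was at 0.0438, 0.0272 and 0.0333 FPKM in KO DP replicates 1 to 3 and listed at 0 in replicate 4 and in all KO SP and WT SP libraries. These values are too low to compare, and no read counts were given from which a detection limit could be set.

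Pou2af1 went the other way from Il21 and Maf. It was at 2.93, 1.85, 2.24 and 1.83 FPKM in KO DP, 5.08 and 6.73 in KO SP and, for the WT SP libraries, 5.29, 2.85, 5.78 and 6.00. WT SP replicate 2 was the only WT SP library inside the KO DP range. The log2 difference of KO DP minus WT SP was -0.87 ± 0.27 (SE, adjusted p = 0.0664 in limma), with -0.56 and -1.19 in the 2 ranges and -0.53 ± 0.26 after scaling, and did not pass the threshold. It passed with the number range as a covariate (adjusted p = 0.0297) and without WT SP replicate 2 (adjusted p = 0.0227). KO DP minus KO SP was -1.11 ± 0.32 (adjusted p = 0.0928), and KO DP lay below KO SP without overlap, as 35.5% of all tested genes did. The summed level of B cell markers other than Cd72 (17 of 19 genes in the table) was 55.2 to 122 FPKM in KO DP, 95.7 to 132 in KO SP and 43.7 to 159 in WT SP. With Cd72, which was called lower in KO DP, the sums were 59.3 to 122, 194 to 214 and 91.1 to 255, so KO DP lay below KO SP and overlapped WT SP, as for Pou2af1. Pou2af1 correlated with the sum without Cd72 at r = 0.378 over the 10 libraries. Cd72 was set aside after its difference was seen, and the part of B cells in the Pou2af1 level was not tested.

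Il6ra, the binding chain, had the largest log2(FPKM + 1) difference of the tested members between KO DP and WT SP. It was at 1.46, 1.63, 0.940 and 0.929 FPKM in KO DP, 6.09 and 13.3 in KO SP and, for the WT SP libraries, 31.6, 13.6, 27.2 and 24.8. The 3 groups did not overlap, although KO SP replicate 2 and WT SP replicate 2 lay close together. Of all tested genes, 13.1% were lower without overlap in KO DP than in WT SP, 35.5% in KO DP than in KO SP and 11.1% in KO SP than in WT SP, where 21.1% were higher without overlap (32.2% in either direction). KO DP minus WT SP was -3.45 ± 0.32 on the log2 scale (SE, adjusted p = 8.72e-05 in limma), -3.10 and -3.80 in the 2 number ranges and -3.14 ± 0.30 after scaling. KO DP minus KO SP was -2.18 ± 0.40 (adjusted p = 0.0177), and -2.38 within 738 to 741. KO SP minus WT SP was -1.27 ± 0.40, and -1.42 within 738 to 741, with an unadjusted p of 0.00766 and an adjusted p of 0.822 in limma, so KO SP was not shown to differ from WT SP.

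Il6st, the signalling chain, was at 8.82, 10.9, 3.97 and 2.97 FPKM in KO DP, 18.3 and 30.9 in KO SP and, for the WT SP libraries, 34.8, 18.6, 37.3 and 27.8. All KO DP libraries lay below all SP libraries, while KO SP and WT SP overlapped. KO DP minus WT SP was -2.10 ± 0.39 (SE, adjusted p = 0.00870 in limma), with -1.29 in the 34 to 37 libraries and -2.90 in the 738 to 741 libraries, and -1.72 ± 0.26 after scaling. The difference between the ranges was 1.61 ± 0.48 (adjusted p = 0.0716, and 0.524 after scaling). KO DP minus KO SP was -1.84 ± 0.48 (adjusted p = 0.0686), which passed after scaling (-1.35 ± 0.32, adjusted p = 0.0422). KO SP minus WT SP was -0.26 ± 0.48 with an adjusted p of 0.949.

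**Figure D2:**
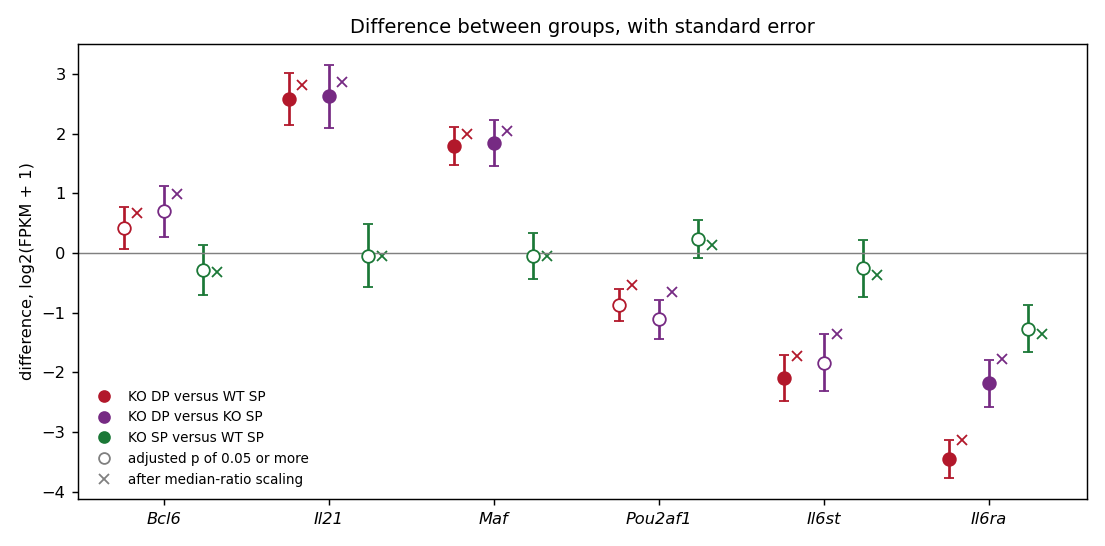
Difference of log2(FPKM + 1) between groups (first minus second) for the 6 tested genes, with the limma standard error, filled where the adjusted p was below 0.05, and crosses for the value after median-ratio scaling. Il21 and Maf are above 0 and Il6st and Il6ra below 0 in both comparisons of KO DP, and none of the KO SP minus WT SP points is filled.

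The receptor chains fell by unequal amounts. The level of Il6st per level of Il6ra, a ratio within each library that a common scale factor does not change, was 6.06, 6.68, 4.22 and 3.20 in KO DP, 3.002 and 2.33 in KO SP and, for the WT SP libraries, 1.10, 1.37, 1.37 and 1.12. The 3 groups did not overlap in this ratio, but KO SP replicate 1 (3.002) lay close to KO DP replicate 4 (3.20). In KO DP the signalling chain was therefore present in 3.20-fold to 6.68-fold excess of FPKM over the binding chain. In WT SP the chains were close to equal. Single genes often separated likewise. Of all tested genes, 39.9% did so between KO DP and KO SP and 32.2% between KO SP and WT SP. Between KO DP and WT SP, 16.5% did. No such share was computed for ratios. KO DP ratios were higher in the first number range (6.06 and 6.68) than in the second (4.22 and 3.20). KO SP occurs only in the second range, where the groups also did not overlap. Il6st and Il6ra correlated at r = 0.931 over the 10 libraries, which share the groups.

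**Figure D3:**
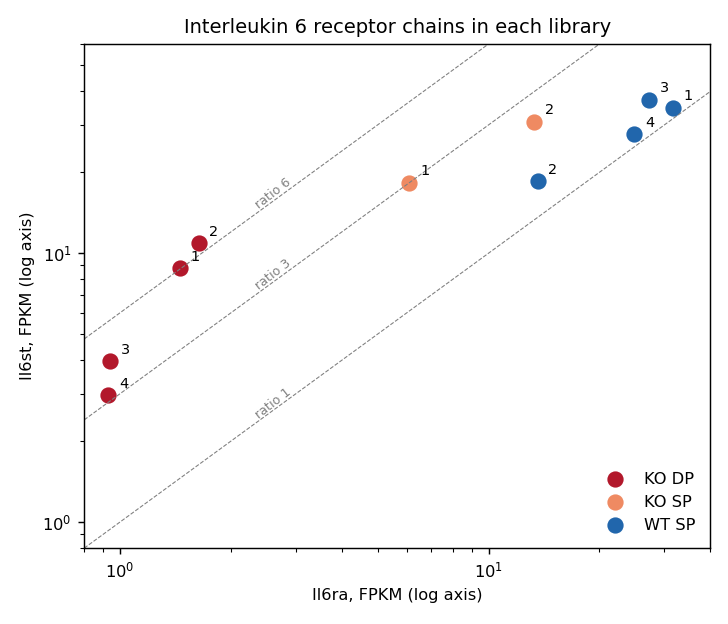
Level of Il6st against Il6ra in each library (FPKM, both axes logarithmic, replicate numbers beside the points), with dashed lines of equal Il6st to Il6ra ratio. KO DP lies between ratios of 3.20 and 6.68, WT SP between 1.10 and 1.37, and the 2 KO SP libraries between them at 2.33 and 3.002.

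In the comparison of KO DP with KO SP, 3 members were called (Il21 and Maf higher, Il6ra lower), where 2.07% of all tested genes were called (0.421% higher and 1.65% lower). After scaling 4 members were called, with Il6st added, against 5.5% of all genes (2.62% higher and 2.88% lower). The first count depended on single libraries. It was 0 without either KO SP library, where the lone one was assumed to vary like the other groups, 1 without KO DP replicate 3, WT SP replicate 1 or WT SP replicate 3, and 0 when the fit held only these groups. Singly, the Il21 call was lost without KO DP replicate 3, either KO SP library or WT SP replicate 1 or 3 (adjusted p of 0.0513 to 0.351 in limma). The Maf call was lost without KO DP replicate 2, either KO SP library or WT SP replicate 1, 3 or 4 (0.0507 to 0.367), and the Il6ra call without KO DP replicate 3 or either KO SP library (0.0625 to 0.387). In the comparison of KO SP with WT SP, no member was called by limma, against 13 of all tested genes (0.116%, with 0.0717% higher and 0.0448% lower), and 346 with the replicate block, which also called no member. After scaling no member was called either, against 0.188% of all genes (0.143% higher and 0.0448% lower). As deposited, 1 member, Il6ra, had an unadjusted p below 0.05, against 3.44% of all genes. The 2 comparisons of KO DP share its libraries, and the 2 comparisons of WT SP share theirs, so they are not independent of each other.

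The question whether the KO DP minus WT SP difference differed between the number ranges was tested with an interaction term. No member passed (adjusted p below 0.05) and 0.466% of all genes did. Bcl6, Il6st and Maf had an unadjusted p below 0.05 in limma, as did 42.9% of all tested genes. Without KO DP replicate 3, where KO DP replicate 4 alone stood for its range, 2 members passed (Maf at 1.07, adjusted p = 0.0219, and Il6st at 1.77, adjusted p = 0.0423), as did 6531 of all tested genes. Markers of other cells varied widely between libraries. The summed myeloid markers (14 of 16 in the table) were 17.4 to 189 FPKM in KO DP, 18.8 to 35.9 in KO SP and 14.9 to 203 in WT SP. The erythroid markers (7 of 9) were 1.32 to 1214, 2.56 to 57.4 and 5.66 to 1007. The dendritic cell markers (10 of 10) were 34.8 to 99.96, 134 to 157 and 95.0 to 120, and the NK cell markers (8 of 8) 39.1 to 108, 141 to 793 and 64.7 to 303. The plasma cell markers (8 of 9) were 34.7 to 120, 56.2 to 75.1 and 43.9 to 84.6. S100a8 of the myeloid list, Ncr1 and Klra4 of the NK cell list and Hba-a2 and Hbb-b1 of the erythroid list were listed at 0 in both KO SP libraries. The part of these cells in the results was not tested.

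Other listed genes of follicular helper cells were called higher in KO DP more often than lower. This list and those below were chosen with earlier results of these data known, so their counts against all genes are only a description. Of 24 listed genes, 22 were tested against WT SP, 9 were called higher and 2 lower, with a median log2 difference of 1.15, where 2.86% of all tested genes were called higher and their median difference was -0.38. Those higher were the follicle-homing receptor Cxcr5 (25.9 ± 15.1 FPKM in KO DP against 6.13 ± 1.70 in WT SP, SD, n = 4 each), the costimulatory molecules Icos, Cd40lg and Tnfrsf4, the surface proteins Cd200, Slamf1 and Gpm6b, the ATP-gated channel P2rx7 and the secreted protein Sostdc1, which every WT SP library listed at 0 and which was testable only through KO DP. The log2 differences were 4.08 for Cd40lg, 4.22 for Tnfrsf4, 3.24 for Gpm6b, 2.62 for Cd200, 1.93 for Icos, 1.77 for Cxcr5, 1.71 for Slamf1 and 1.21 for P2rx7. The 2 lower genes were Tcf7 (-1.46, adjusted p = 0.0474 in limma) and Lef1 (-1.31, adjusted p = 0.04999), factors of naive and memory T cells that also promote follicular helper cells. After scaling 12 of the 22 were called higher, with Tox2, Batf and Angptl2 added, and the same 2 lower. Angptl2, like Sostdc1, was testable only through KO DP. Without WT SP replicate 1, 3 or 4 the calls in both directions numbered 6, 5 and 6 in place of 11, and without WT SP replicate 2 and with scaling they numbered 18. The calls of Icos, Cd200, Cd40lg, Tnfrsf4 and Gpm6b held whichever library was left out. That of Cxcr5 was lost without WT SP replicate 3 or 4, that of Slamf1 without WT SP replicate 1 or 3, and that of P2rx7 without WT SP replicate 1, 3 or 4. Those of Sostdc1, Tcf7 and Lef1 were lost without any 1 of KO DP replicate 3, the KO SP libraries and WT SP replicates 1, 3 and 4. Sostdc1 was lost also without KO DP replicate 1 or 2 or WT SP replicate 2, Tcf7 without KO DP replicate 4 and Lef1 without KO DP replicate 1. Several of these genes, Icos, Cd40lg and Tnfrsf4 among them, are also known from other activated CD4 T cells.

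In KO DP against KO SP, Cd40lg and Tnfrsf4 were called higher among the 22 tested (log2 differences of 2.59 and 4.18), and 8 were after scaling, 6 with the replicate block. The count was 1 without either KO SP library, 4 without KO DP replicate 4 and 5 without WT SP replicate 2. In KO SP, Cxcr5 (12.0 and 14.3 FPKM), Icos (25.9 and 19.2) and Cd40lg (4.19 and 3.47) lay above every WT SP library, as 21.1% of all tested genes did. Cd200, Slamf1, P2rx7, Tnfrsf4 and Sostdc1 overlapped between these groups. In KO SP against WT SP only Gpm6b, a membrane glycoprotein, was called (log2 difference 2.69, adjusted p = 0.0212 in limma). It was at 7.98 and 8.13 FPKM in KO SP and at 0.249 to 0.626 in WT SP. The call was lost without KO DP replicate 3, without either KO SP library, or without WT SP replicate 2, 3 or 4.

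Of 15 genes that oppose Bcl6 or that Bcl6 is known to repress, 3 were called higher in KO DP than in WT SP and 3 lower, where 2.86% and 5.03% of all tested genes were. The list's median log2 difference was -0.87 against -0.38 for all tested genes. After scaling, with the all-gene median at -0.01, it was -0.59, with 4 genes higher and 5 lower. The higher ones were the chemokine receptor Ccr6 (3.70), the helper lineage factor Zbtb7b (1.47), testable only through KO DP, and the interleukin 2 receptor chain Il2ra (1.47). The lower ones were the lymph node homing receptor Ccr7 (-3.55), the interleukin 7 receptor Il7r (-1.61) and the egress receptor S1pr1 (-1.22). Ccr7 was at 9.72 to 27.3 FPKM in KO DP, against 95.4 to 289 in WT SP. The count of 6 was 2 without WT SP replicate 1, 3 or 4, and 3 without either KO SP library. Ccr6 and Ccr7 were called whichever library was left out. The calls of Il7r, S1pr1, Zbtb7b and Il2ra were lost without any 1 of WT SP replicates 1, 3 and 4, and, except for Zbtb7b, without either KO SP library. Il7r was lost also without KO DP replicate 2, 3 or 4, S1pr1 without KO DP replicate 3 and Il2ra without KO DP replicate 1 or 2. Ccr7 was also called lower in KO DP than in KO SP (-3.60, adjusted p = 0.00379 in limma), a call lost without either KO SP library. It was the only call of this list between them, against 5 with the replicate block, 6 after scaling, 4 without KO DP replicate 4 and 2 without KO DP replicate 1 or WT SP replicate 2. Between KO SP and WT SP none was called as deposited, against 3 with the replicate block. After scaling 1 was, Ccr6, called higher in KO SP, as 0.143% of all tested genes were. Ccr6 was at 6.03 and 7.87 FPKM in KO SP and at 0.174 to 1.43 in WT SP.

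Of 12 ligands of the interleukin 6 family, 3 were tested and 9, Il6 itself among them, were below the level for testing. Ebi3, a subunit of interleukins 27 and 35, was at 9.70, 7.01, 3.58 and 2.92 FPKM in KO DP, 0.115 and 0.265 in KO SP and 0.238 to 0.432 in WT SP. It was called higher in KO DP than in WT SP (log2 difference 2.24) and than in KO SP (2.40), the latter call lost without either KO SP library. Like Il21 and Maf, it was testable only through KO DP. Clcf1, a ligand of the ciliary neurotrophic factor receptor that signals through Il6st, was at 11.1, 7.54, 5.49 and 2.85 FPKM in KO DP, against 18.8 to 32.6 in WT SP, and was called lower (-1.88). Osm, oncostatin M, was at 12.7 ± 2.56 and 13.2 ± 4.23 FPKM (SD, n = 4 each) and was not called. Of 11 other receptors, listed as related to the family and including the interleukin 21 receptor chains Il21r and Il2rg, 7 were tested. Il12rb2, the interleukin 12 chain of Th1 cells, was called lower (-1.03), a call lost after scaling. Il23r, the interleukin 23 chain of Th17 cells, was called higher. Il23r was at 0.676 to 1.73 FPKM in KO DP and listed at 0 in each WT SP library, and so testable only through KO DP. After scaling, Il12rb1, the chain shared by the interleukin 12 and 23 receptors, was called higher (1.01) and Il21r, the receptor chain for interleukin 21, lower (-0.83). The Il12rb2 call was also lost without KO DP replicate 2, either KO SP library or any 1 WT SP library.

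Among 15 tested genes listed for signalling below Il6st, a list that also held the proteases Adam10 and Adam17, Socs3 was called lower in KO DP than in WT SP. No gene of the list was called higher, where 5.03% of all tested genes were called lower and 7.89% in either direction. Socs3, the feedback inhibitor that binds Il6st and is itself induced by STAT3, was at 20.9, 14.2, 5.07 and 5.50 FPKM in KO DP, 48.0 and 58.5 in KO SP and, for the WT SP libraries, 78.8, 44.5, 91.1 and 85.0. KO DP lay below all other libraries, and WT SP replicate 2 was the lowest WT SP library. The log2 difference to WT SP was -2.77 ± 0.42 (SE, adjusted p = 0.00268 in limma), -1.72 and -3.82 in the 2 number ranges and -2.37 ± 0.29 after scaling. To KO SP it was -2.33 ± 0.52 (adjusted p = 0.0418), a call lost with the replicate block (-2.09, adjusted p = 0.0532). That call was also lost without any 1 of KO DP replicates 2, 3 and 4, the KO SP replicates or WT SP replicates 1, 3 and 4. Stat3, which carries the signal to the nucleus, was at 75.0 ± 49.0 FPKM in KO DP against 84.3 ± 4.58 in WT SP (SD, n = 4 each) and was not called. The called genes of this list numbered 3 after scaling, when the kinase Jak1 was called lower (-0.98) and the feedback inhibitor Cish higher (1.69). They numbered 3 with the replicate block, 2 without KO DP replicate 1 or 4 and 4 without KO DP replicates 3 and 4.

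The genes whose levels ran most alike over the 10 libraries, by Pearson r of log2(FPKM + 1) among 9940 genes with symbols of their own, were Dock4 (0.994), Pdzk1ip1 (0.988) and Synpo (0.978) for Il21, and St3gal2 (0.989), Tff1 (0.988) and Kit (0.987) for Maf. For Il6st they were Rrp12 (0.987), Gramd4 (0.987) and Fam203a (0.986), and for Il6ra Kri1 (0.976), Elovl7 (0.973) and Bach2 (0.973). For Pou2af1 they were Sh3bp5 (0.983), Eya2 (0.976) and Apol7a (0.975), and for Bcl6 Sorbs3 (0.948), Hist2h3c2 (0.942) and Sarm1 (0.927). These points share the groups, the number ranges and the library sums.

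H3K9me3 peaks were assigned to all 7 genes in at least 1 list, mostly far from their start sites. The lists held 85960 and 23304 peaks in WT replicates 1 and 2 and 111149 and 154997 in KO replicates 1 and 2, of which 37, 19, 26 and 25 carried a member's name. By list, 51.1%, 33%, 46.5% and 51.6% of the genes in the expression table had a peak. Positions are those of the deposited lists on mm9, and a peak takes the name of the gene with the nearest start. Merged over lists, the peaks formed 48 regions, of which 12 were in all 4 lists, 1 in both WT lists alone, 3 in both KO lists alone and 21 in a single list. Of the 48, 36 were annotated to a repeat in at least 1 list. The list of WT replicate 2 was by far the shortest, so absence of a region from it shows no difference of genotype. Of the 7 genes, 6 had a peak in every list, as did 27.4% of all genes in the expression table. Pou2af1 was the exception, with none in KO replicate 2. A peak within 10 kb of the start in all 4 lists occurred for 1 gene, Il21, and for 7.47% of all genes, and one in any list likewise for Il21 alone and for 37.4% of all genes. No member had peaks in both lists of 1 genotype and none in the other, as 3.37% of genes had for KO alone and 1.08% for WT alone.

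At Il21 the shared region lay at chr3:37139446-37141045, intergenic, between 8484 and 8709 bases upstream of the start. Both WT peaks were annotated to an Lx7 LINE element, and neither KO peak was annotated to a repeat. The deposited peak score in this region was 24.3 and 22.1 in the WT lists and 31.1 and 49.4 in the KO lists. The peaks were 984, 744, 1488 and 1599 bases long. Both KO values exceeded both WT values, while the median score over all peaks was higher in WT (11.9 and 17.4) than in KO (9.22 and 9.32). With 2 libraries a genotype no test was made. By its distance from the start this region lies outside the promoter window shown above, and the only other peak within 10 kb was in KO replicate 1, at 5780 bases upstream.

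Il6ra had 2 regions in all 4 lists. The one in intron 9 of 9 (chr3:89676562-89677870, in an ORR1C2 long terminal repeat element) scored 78.5 and 26.8 in WT and 42.7 and 32.2 in KO, so the genotypes overlapped. The one in intron 1 of 9 (chr3:89697944-89699400) scored 48.7 and 42.6 in WT and 27.2 and 24.7 in KO, with both WT values above both KO values, as the lists' median scores also were. Neither lay within 10 kb of the start.

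Il6st had 8 and 5 peaks in WT and 5 and 2 in KO, which covered 8628 and 3281 bases in WT and 3737 and 1134 in KO. In all 4 lists were a region about 48 kb upstream of the start (chr13:113204718-113206244), with scores of 34.6, 25.3, 14.6 and 12.1, and one in intron 3 of 16 (chr13:113265781-113266993), with 15.7, 12.6, 12.6 and 9.79. The intron 3 peaks were annotated to an L1MA6 LINE element in every list but that of WT replicate 1. A region at chr13:113228387-113229439, 25365 to 25450 bases upstream, was in both WT lists (25.4 and 12.6) and in neither KO list. Its score in WT replicate 2 equalled the lowest of a member's peak in that list. The median score over all peaks was also higher in the WT lists (11.9 and 17.4) than in the KO lists (9.22 and 9.32). The region nearest upstream, chr13:113238709-113239952, scored 33.5, 33.1 and 34.0 in the WT lists and KO replicate 1 and was absent from the list of KO replicate 2. The RNA of Il6st was lower in KO DP, and the ChIP came from other cells (cultured CD8 T cells), so RNA and mark were not measured in the same samples.

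**Figure D4:**
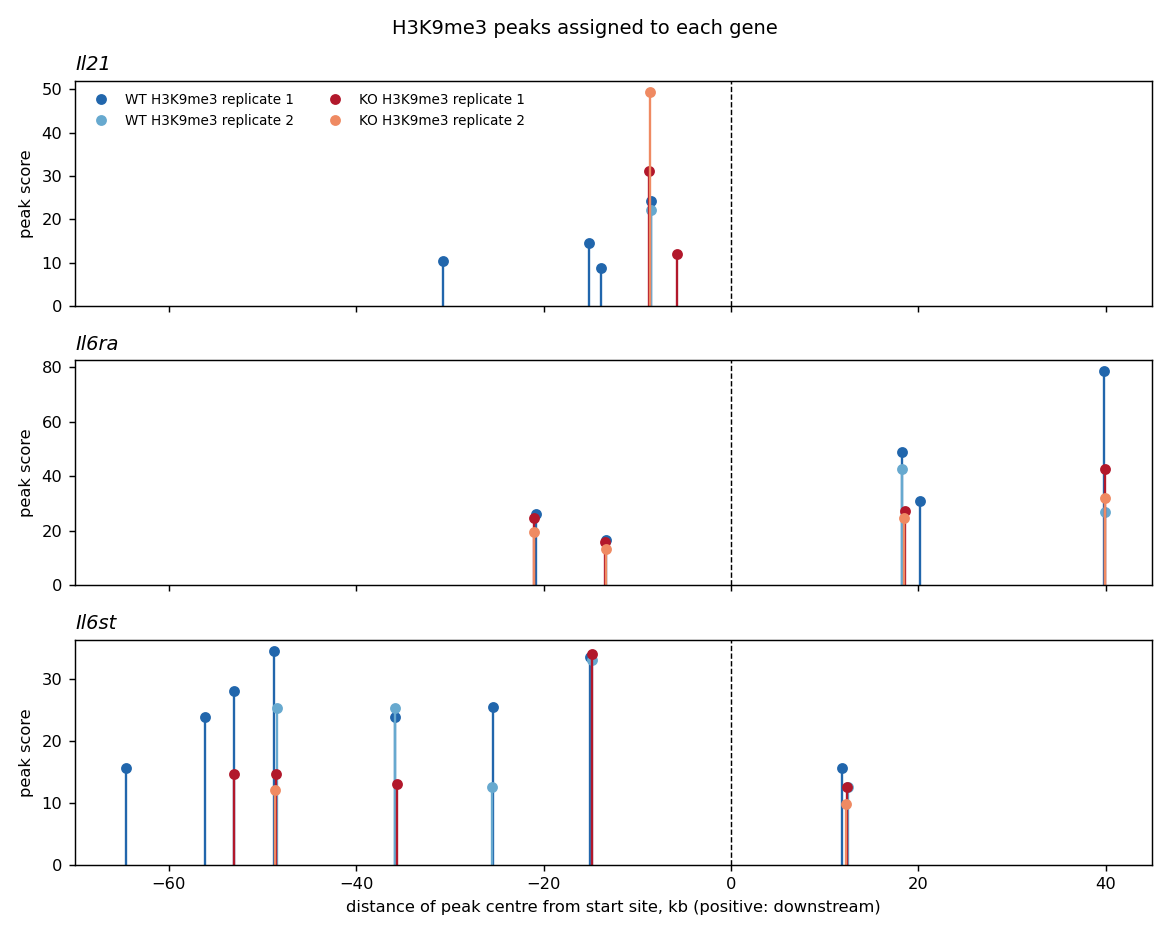
Deposited score of each H3K9me3 peak named for Il21, Il6ra or Il6st against the distance of its centre from the start site (kb, positive downstream), with 1 colour per list and the dashed line at the start site. No peak lies at a start site, the Il21 peak in all 4 lists is highest in KO replicate 2 at 49.4, and Il6st has 2 peaks in KO replicate 2 against 8 in WT replicate 1.

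Maf had most of the regions, 24, of which 12 lay within an intron of Wwox, the neighbouring gene, and were named for Maf because its start was nearest. Of the 24, 6 were in all 4 lists, and the peak nearest the start was 30661 to 30804 bases upstream in each list. Ascl2 had 2 regions: chr7:150136583-150137509, about 18 kb downstream, scored 14.1 and 15.8 in WT and 17.5 and 19.1 in KO, and the other was in both KO lists alone (6.8 and 10.3). Both of these scores lay below the lowest of a member's peak in the list of WT replicate 2 (12.6). Absence of that region from the WT replicate 2 list therefore shows no difference of genotype. Pou2af1 had 1 region, chr9:51002612-51003962, with scores of 20.6 and 23.7 in WT and 14.1 in KO replicate 1. Bcl6 had 3 regions, none in all 4 lists, the closest in intron 9 of 9 at 20769 bases downstream of the start and in WT replicate 1 alone.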

How the data were processed

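RNA was measured in 10 libraries and H3K9me3 in 4. The RNA kits, SMART-Seq v4 and Nextera per the labels' protocols, keep no strand, so reads of overlapping transcripts cannot be assigned to a strand. Bcl6, Il21 and Il6ra each overlap an annotated non-coding RNA in RefSeq. The deposited values are FPKM from TopHat and Cufflinks (mm9), per the submitters' processing notes. They hold no read counts, so no counting interval or detection limit was computed. Native ChIP with micrococcal nuclease went through Bowtie and HOMER (mm9), per the same notes. The authors deposited a score per peak whose scaling is not given in the sources used here, so scores were set side by side between lists with that limit: the highest was 516902 and 2388931 in the WT lists and 1132 and 4067 in the KO lists. Peak lengths and distances to the start are other deposited columns, per the file headers. Tool versions were not stated, and the input libraries were not analysed here.

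Repeated symbols in the table were summed (466 lines of 250 symbols, none a member). Tests used limma 3.58.1 in R 4.3.3, with a mean-variance trend on log2(FPKM + 1), on the 11162 genes whose mean reached 0.5 FPKM. The 3 groups shared 1 spread, with 7 residual degrees of freedom. Adjustment was by Benjamini-Hochberg over all tested genes, with a threshold of 0.05. Scaling used median-ratio size factors on FPKM from 10571 genes. Since replicates may be technical, p-values speak only of the variation among these libraries. Peaks overlapping by 1 base were merged into regions, with pandas 2.3.3 in Python 3.11.15. No genome of mm9 was used, so no sequence was read from peaks. Alternatives were another pseudocount (0.1), other filters on low values, scaling, the title range, the replicate block and leaving out libraries.

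The description fields number the KO DP and WT SP replicates 1 to 4. Residuals of same-numbered samples around their group means correlated at 0.119, 0.293, 0.111 and 0.103, each above the limit of 0.1 set for taking numbers as pairs. This is weak evidence: samples of other numbers within a title range correlated at up to 0.243, and KO SP replicates correlated with their numbers in KO DP at 0.0166 and 0.0537 and in WT SP at -0.0339 and -0.11. The block also ties KO SP to those numbers, although KO SP shares title numbers with KO DP replicates 3 and 4.

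Named genes were all members, Ehmt2, Cd4 and Cd8a, in each pathway list every called gene and up to 4 genes with the smallest p, and the 3 most alike genes per member. Pdcd1, Tox, Irf4, Btla, Il4, Cebpa, Prdm1, Stat3 and the marker genes Cd72, S100a8, Ncr1, Klra4, Hba-a2 and Hbb-b1 were named outside that rule, after their values were seen. The members and lists were chosen with earlier results of these data known.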

Additional observations from a re-analysis of the deposited data

Results flagged for a closer look

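In groups of 4, a sample was singled out where its gap to the nearest other sample as a share of the group's range exceeded the critical value of Dixon's test at the 95% level. This was looked for in 69 groups over 36 genes (the members, Ehmt2, Cd4, Cd8a, the called genes of the pathway lists, and Osm, Stat3, Pdcd1 and Prdm1) and found in 6, where chance gives about 1 in 20. Il21 in KO DP replicate 2 was at 19.1 FPKM, against 2.80 to 4.65 in the other KO DP libraries. WT SP replicate 2 gave the other 5 values, and Pdcd1 and Prdm1 had been named for standing apart there. The count of 6 therefore cannot be set against the share given by chance. Pdcd1, an inhibitory receptor, was at 238 FPKM against 1.41 to 3.31 in the other WT SP libraries, and Prdm1, the repressor that opposes Bcl6, at 16.0 against 1.57 to 2.63. Tnfrsf4, a costimulatory receptor of activated T cells, was at 7.52 there against 2.12 to 2.23. Il7r, the interleukin 7 receptor, was at 86.3 against 202 to 225. Zbtb7b, the helper lineage factor, was at 0.853 against 0.214 to 0.304.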

How the results depend on the processing

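The 4 members called in KO DP against WT SP numbered 4 or 5 under every alternative run, with 5 when the title range was a covariate, without KO DP replicates 3 and 4, and without WT SP replicate 2. No called difference of a named gene changed its sign under any alternative run. The 3 members called in KO DP against KO SP became 0 with no filter on low values, 0 with only these 2 groups in the fit, 0 to 3 with 1 library left out, and 4 after scaling. The cause was not tested. For KO SP against WT SP the count was 0 under every alternative run, and for the difference between title ranges it was 0 to 2 with 1 library left out. The 12 regions in all 4 peak lists became 1 within 10 kb of the start, 8 at or above each list's median score and 12 to 16 with 1 list left out.

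With the replicate block of description numbers the called members numbered 4, 3 and 0 in the 3 comparisons, and it changed no call of a member. Blocking on the title numbers that KO DP replicates 3 and 4 share with KO SP gave 5 called members, where 4587 of all genes were called.

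Over all genes, the 881 called in KO DP against WT SP became 1964 after scaling, 2123 with the title range as covariate, 1435 with the replicate block and 556 with only those groups. Leaving out WT SP replicates 1, 3 and 4 in turn gave 364, 308 and 348, leaving out the KO SP libraries 527 and 525, and leaving out KO DP replicate 3 gave 394. The 231 in KO DP against KO SP became 614 after scaling, 583 with the block and 21 to 401 with 1 library left out. The 13 in KO SP against WT SP became 37 with the title range as covariate and 27 with only those groups.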
